A study of Nematostella vectensis with 66 samples.

Results

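The comparison set ZT6 against ZT5, the step from mid to late morning, in adult starlet sea anemones (Nematostella vectensis) kept in a salt marsh. It holds the 13 libraries of these hours out of 66 in the series, which ran hourly over 10 hours of a single day. The 6 ZT6 libraries, taken at 11 h clock time, were 4 single animals (A to D) and 2 pools of 2 animals (F and G). The 7 ZT5 libraries, taken at 10 h, were 4 single animals (A to D) and 3 pools of 2 animals (E to G). All groups shared one origin and treatment: descendants of animals from Great Sippewissett Marsh that had been bred in the laboratory, acclimated to the salinity of the site, penned in a tidally restricted pool and placed in RNAlater on collection. No group was kept under constant conditions. The pen of each library is not given, so an effect of the pen and an effect of the hour cannot be told apart.

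Nematostella is a burrowing cnidarian that lives in estuaries, and it is known to move more at night than by day. Animals possess a circadian clock, a loop of transcription factors and their repressors that drives daily rhythms in many transcripts and that light resets. Cnidarians carry relatives of the clock genes of flies and mammals, and in Nematostella several of these transcripts follow the light cycle. The deposited table lists gene models by identifier only, and none of its 24265 identifiers was found in the reference table used here. Clock genes, pathways and tissue markers therefore could not be looked up, no sequence is printed, and the gene models below are described by their behaviour.

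Total counts were 521490 to 744880 per library at ZT6 and 507303 to 780576 at ZT5. Averages were 640130 ± 79880 counts at ZT6 (SD, n = 6) and 617663 ± 83521 at ZT5 (SD, n = 7), an exact two-sided permutation p of 0.635. Gene models detected averaged 17154 ± 529 at ZT6 and 17025 ± 525 at ZT5 (exact permutation p = 0.663), and the 100 most abundant gene models took 29.4 ± 2.82% of counts at ZT6 and 30.3 ± 2.74% at ZT5 (exact permutation p = 0.554). Adjusted over these measures and the axis score given later, no p was below 0.883. One library stood apart. The ZT5 pool E held 5.64% of its counts in 14 gene models that took 0.0034 to 0.0117% of counts in the 6 ZT6 libraries and 0.0033 to 0.0105% in the other 6 ZT5 libraries. These 14 were picked for that contrast. They were called lower at ZT6 and had at least 90% of their scaled counts over the 13 libraries in pool E. The counts of calls, the lists and the gene models named are therefore given with and without it.

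Among the gene models called, more rose than fell. With all 13 libraries, 111 of 10916 gene models tested rose at ZT6 (1.02%) and 36 fell (0.33%), where a call means a Benjamini-Hochberg adjusted p under 0.05 from the quasi-likelihood F test of edgeR. The rises were sizeable: the median was 3.00-fold, the quartiles were 2.30 and 3.79-fold, and the extremes were 1.64 and 9.52-fold. Of the 111, 24 rose more than 4-fold, 70 rose between 2 and 4-fold and 17 less than 2-fold. The median log2 change was 1.58 over the rises and -0.003 over all gene models tested. At an unadjusted p below 0.05 in edgeR, 651 were higher at ZT6 and 561 lower, or 636 and 591 without pool E. The excess of rises was thus much smaller at that threshold than among the calls. RNA came from whole animals, so a change in the number of cells that hold a transcript and a change in RNA per cell cannot be told apart.

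The rises were spread over the abundance range, with 56 among the high, 37 among the middle and 18 among the low when the gene models tested were split into 3 equal classes of abundance. Their mean level over the 13 libraries had a median of 41.6 CPM (counts scaled to library size, with TMM factors), against 25.4 CPM for all gene models tested. Together the 111 took 0.941 to 1.25% of counts in the ZT6 libraries and 0.350 to 0.598% in the ZT5 libraries. The averages were 1.16 ± 0.122% at ZT6 (SD, n = 6) and 0.434 ± 0.0867% at ZT5 (SD, n = 7), with no overlap between the hours. This separation follows from the choice of the list in the same libraries. Taken singly, 74 of the 111 had every ZT6 library above every ZT5 library. The same held for 89 of all gene models tested (0.815%).

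The smallest p among the rises belonged to NVE19037 and NVE4719, with and without pool E. NVE19037 had 174, 273, 283 and 222.5 CPM in ZT6 animals A to D and 193 and 311.5 CPM in ZT6 pools F and G, against 71.1, 89.5, 23 and 40.9 CPM in ZT5 animals A to D and 23.4, 24.1 and 37.9 CPM in ZT5 pools E to G. The lowest ZT6 library was above the highest ZT5 library. The log2 change was 2.44 ± 0.36 (SE; edgeR adjusted p = 4.35e-05), and 2.32 ± 0.37 without pool E (edgeR adjusted p = 0.000497).

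NVE4719 was a transcript of low abundance at ZT5, with a mean of 5.16 CPM, against 27.7 CPM at ZT6. It had 21.55, 36.4, 31.2 and 19.1 CPM in ZT6 animals A to D and 29.2 and 28.8 CPM in ZT6 pools F and G, against 4.85, 3.51, 5.75 and 3.96 CPM in ZT5 animals A to D and 3.60, 5.57 and 8.925 CPM in ZT5 pools E to G. These rest on 13 to 20 counts per ZT6 library and 2 to 4 counts per ZT5 library, and the hours again did not overlap. The log2 change was 2.41 ± 0.36 (SE; edgeR adjusted p = 4.35e-05), and 2.33 ± 0.38 without pool E (edgeR adjusted p = 0.000497).

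**Figure D1:**
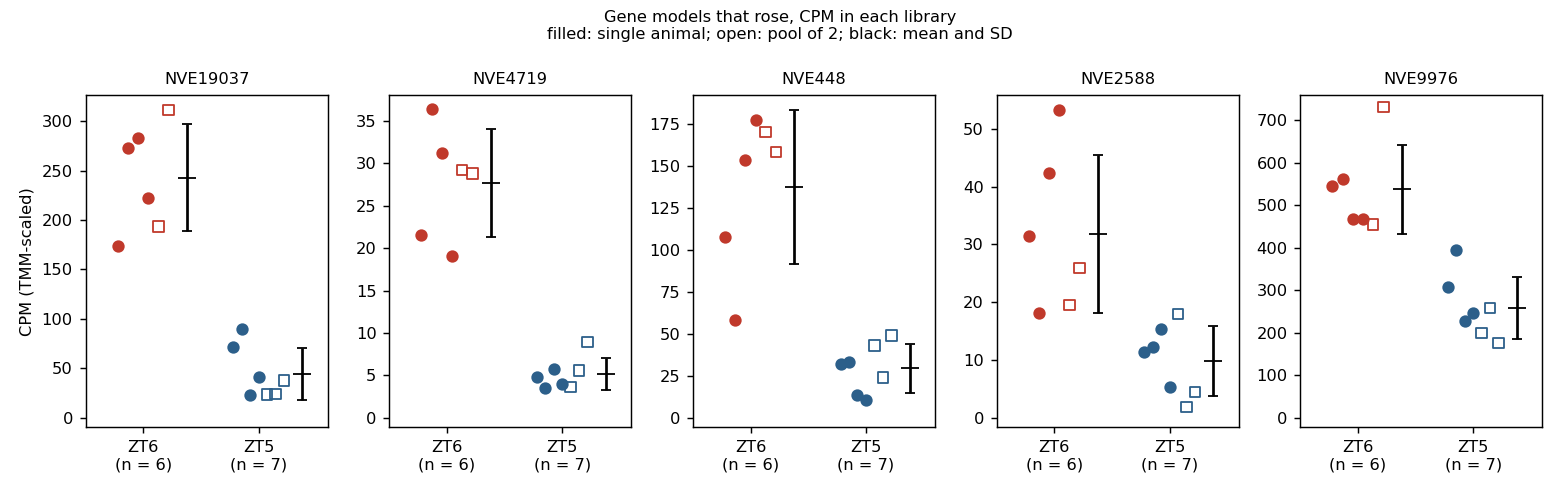
CPM in each library for 5 gene models that rose, with ZT6 on the left of each panel (n = 6) and ZT5 on the right (n = 7); filled points are single animals, open squares are pools of 2 animals, and bars are the mean and SD. In all 5 panels every ZT6 library lies above every ZT5 library, by a wide gap in NVE4719 and a narrow one in NVE2588 (18.2 CPM at ZT6 against 18.0 CPM at ZT5).

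Leaving out pool E changed the falls more than the rises, mainly through the block of 14 gene models. Without that pool, 87 of 10875 gene models rose (0.8%) and 22 fell (0.202%). Of the rises, 76 were called in both fits, which is 68.5% of the 111 and 87.4% of the 87. Of the falls, 14 were called in both, which is 38.9% of the 36 and 63.6% of the 22. The 14 gene models of the block were picked for their share in pool E, so their loss without it follows from that choice. The falls kept were all among the other 22, 14 of these 22, beside 76 of the 111 rises. Outside the block the falls were thus kept about as often as the rises. Falls were also lost when other libraries were left out. Of the 36 falls, 14 were kept without ZT6 B, 13 without ZT6 D, 12 without ZT6 F and 10 without ZT6 G. With any other library left out, 17 to 27 were kept. Without the pool, the median log2 change was 1.65 for the rises and -0.98 for the falls.

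The 36 falls with all libraries were of 2 kinds. In 14 of them pool E alone held at least 92.3% of the CPM summed over the 13 libraries, and in the other 22 it held at most 23.3%. The 14 had a median log2 change of -6.36, and none was called without pool E. NVE3853 and NVE25154 are examples. NVE3853 had 0 to 6.50 CPM in the 6 ZT6 libraries, against 1726 CPM in ZT5 pool E and 0 to 4.85 CPM in the other ZT5 libraries. Its fitted log2 change of -6.58 ± 1.41 (SE; edgeR adjusted p = 0.00329) thus rests on 1 library, and without it the gene model had too few counts to be tested. It was not called in limma (-1.09, adjusted p = 0.929) or with the replicate letter as a block in edgeR (-4.66, adjusted p = 0.391). NVE25154 had 0 to 8.91 CPM in the ZT6 libraries, against 698 CPM in ZT5 pool E and 0 to 7.67 CPM in the other ZT5 libraries, with a log2 change of -5.12 ± 1.23 (SE; edgeR adjusted p = 0.0113), and it too was not tested without the pool. It was not called in DESeq2 (-4.36, adjusted p = 0.451) or with the block in edgeR (-3.19, adjusted p = 0.567), and in limma it was 0.17 (adjusted p = 0.991).

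The other 22 falls were smaller than the rises, with log2 changes from -2.69 to -0.48 and a median of -0.93. Of the 22 falls called without pool E, 11 fell by more than 2-fold and 11 by less. By the same split, 12 were in the high, 7 in the middle and 3 in the low class of abundance. In this list of 22, 4 gene models had all 6 ZT6 libraries below the 6 ZT5 libraries other than E, against 65 of the 87 rises with all ZT6 libraries above. Over all gene models tested, 39 lay wholly below (0.357%) and 99 wholly above (0.907%) in that comparison of 6 with 6. With pool E included, 1 of the 36 falls had no overlap, against 13 of all gene models tested (0.119%).

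**Figure D2:**
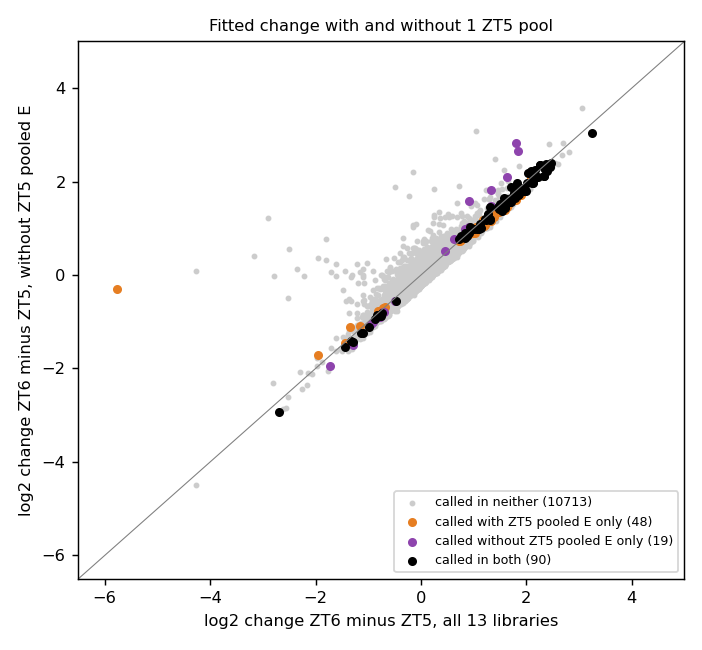
Fitted log2 change ZT6 minus ZT5 with all 13 libraries (horizontal) and without the ZT5 pool E (vertical), 1 point per gene model, with the line of equality. The 90 gene models called in both fits follow the line; 46 gene models not tested without the pool are not drawn, and 4 lie outside the axes.

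NVE2697 had the smallest p among the falls called without pool E, and its signal came from a pair of animals. It had 18.2, 9.10, 11.1 and 10.9 CPM in ZT6 animals A to D and 27.6 and 14.4 CPM in ZT6 pools F and G, against 17.8, 223, 9.58 and 505 CPM in ZT5 animals A to D and 9.00, 9.28 and 11.2 CPM in ZT5 pools E to G. Only ZT5 animals B and D were high, and the remaining ZT5 libraries lay within the ZT6 range or within 0.1 CPM of it. The log2 change was -2.69 ± 0.56 (SE; edgeR adjusted p = 0.00371), and -2.93 ± 0.55 without pool E (edgeR adjusted p = 0.00323). Without ZT5 animal D it was -1.51 (edgeR adjusted p = 0.106), and in limma it was -1.17 (adjusted p = 0.375).

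NVE16519 showed a smaller change that most libraries shared. It had 31.5, 25.5, 35.6 and 17.75 CPM in ZT6 animals A to D and 30.9 and 38.9 CPM in ZT6 pools F and G, against 64.6, 54.4, 46 and 46.15 CPM in ZT5 animals A to D and 28.8, 55.7 and 60.2 CPM in ZT5 pools E to G. All ZT5 libraries except pool E were above all ZT6 libraries. The log2 change was -0.87 ± 0.19 without pool E (SE; edgeR adjusted p = 0.0105) and -0.76 ± 0.19 with it (edgeR adjusted p = 0.022). That call with all libraries was lost without ZT5 A (edgeR adjusted p = 0.0629), ZT5 F (0.0523), ZT6 B (0.0635) or ZT6 D (0.104), with no filter on low counts (0.0791) and with only the 13 libraries in the fit (0.156), while the log2 change lay between -0.64 and -0.77.

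**Figure D3:**
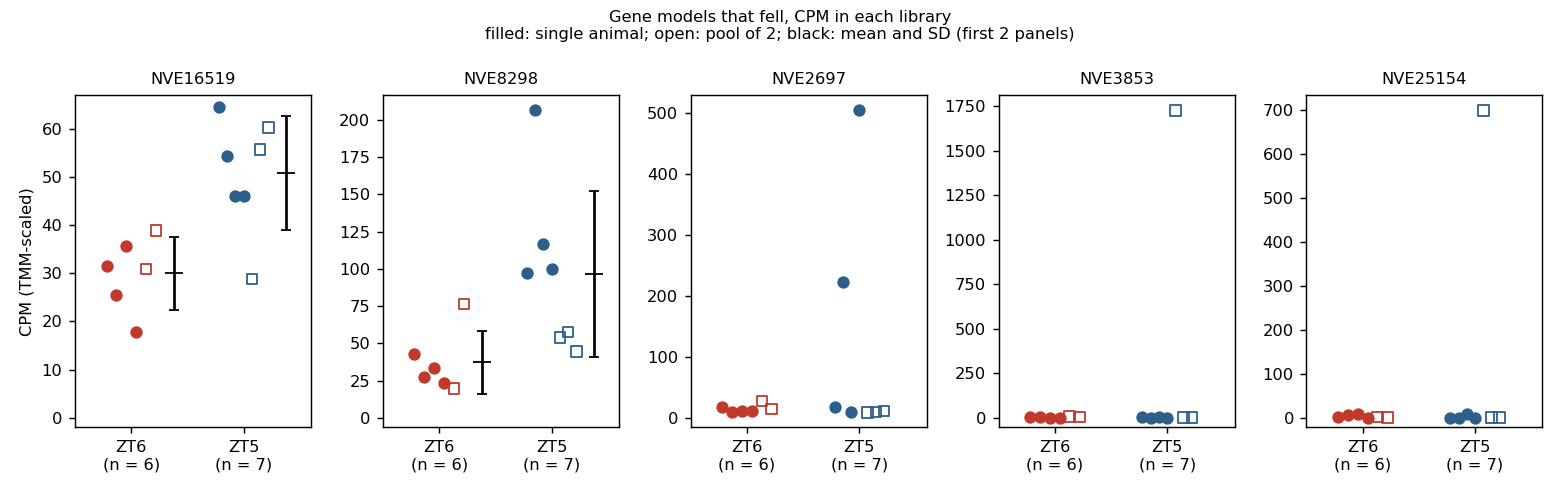
CPM in each library for 5 gene models that fell, with ZT6 on the left of each panel (n = 6) and ZT5 on the right (n = 7); filled points are single animals and open squares pools of 2 animals. Bars in the panels of NVE16519 and NVE8298 are the mean and SD; in NVE3853 and NVE25154 only ZT5 pool E is high, at 1726 and 698 CPM, and in NVE2697 only ZT5 animals B and D, at 223 and 505 CPM.

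Pool E could be compared with lists that it had not helped to choose. Over the 87 rises called without it, the mean log2 CPM was 6.06 to 6.34 in the ZT6 libraries, 4.43 to 5.02 in the 6 other ZT5 libraries and 4.64 in pool E. Over the 22 falls, it was 5.22 to 5.53 in the ZT6 libraries, 6.23 to 6.50 in the 6 other ZT5 libraries and 5.52 in pool E. The other libraries chose these lists, which moves their levels apart, so each was also left out together with pool E and set against the lists called without both. For the falls (8 to 22 gene models), the library left out lay above all ZT6 libraries in all 6 cases, but below the lowest remaining ZT5 library in 5 of 6, all but animal A. For single animals A to D, it was nearer the ZT6 mean than the mean of the remaining ZT5 libraries in 25 to 54.5% of the falls. The share was 75% (6 of 8) for pool F and 68.8% (11 of 16) for pool G, against 86.4% (19 of 22) for pool E. For the rises these shares were 6.78 to 33.3%, against 19.5% (17 of 87) for pool E. Pool E thus had the highest share for the falls, followed by pools F and G, and was within the range of the others for the rises. The difference was not tested.

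Single animals and pools were different animals, so each kind gives its own estimate. In the 4 ZT6 against 4 ZT5 single animals, edgeR called 6 of 12513 gene models higher (0.048%) and 3 lower (0.024%), with 974 at an unadjusted p below 0.05. All 9 were also called in the fit of both kinds. Animals of the same letter deviated together at the 2 hours, and with the letter as a replicate block edgeR called 15 gene models, 12 higher and 3 lower, including all 9. In pools alone edgeR called 0 gene models, with 862 at an unadjusted p below 0.05, or 918 without pool E, and DESeq2 called 31. The test of whether the step differed between single animals and pools called 0 in edgeR, with 544 at an unadjusted p below 0.05 and a smallest adjusted p of 0.116, and DESeq2 called 12.

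Gene models that stood out in single animals mostly moved the same way in pools. Among 10766 gene models tested in both kinds, 189 were higher at ZT6 in single animals at an unadjusted p below 0.01 (1.76%). In pools without E, 158 of these 189 were higher (83.6%, against 48% of all gene models), and 68 (36%) were higher at an unadjusted p below 0.05, against 4.52% of all. Their median log2 change was 1.42 in single animals and 0.99 in pools. Lower at ZT6 in single animals were 77 (0.715%). In pools 57 of these were lower (74%, against 51.6% of all), 9 (11.7%) with an unadjusted p below 0.05, against 3.95% of all. Their median log2 change was -1.13 in single animals and -0.34 in pools. With pool E in the pools' fit, 161 of the 189 were higher and 56 of the 77 lower. At an unadjusted p below 0.05 in edgeR, 81 of the 189 were higher and 3 of the 77 lower. Over all 10997 gene models tested in that fit, 862 passed this threshold, both directions together. The share of each direction was not computed there, so the 3 of 77 cannot be read as an excess.

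**Figure D4:**
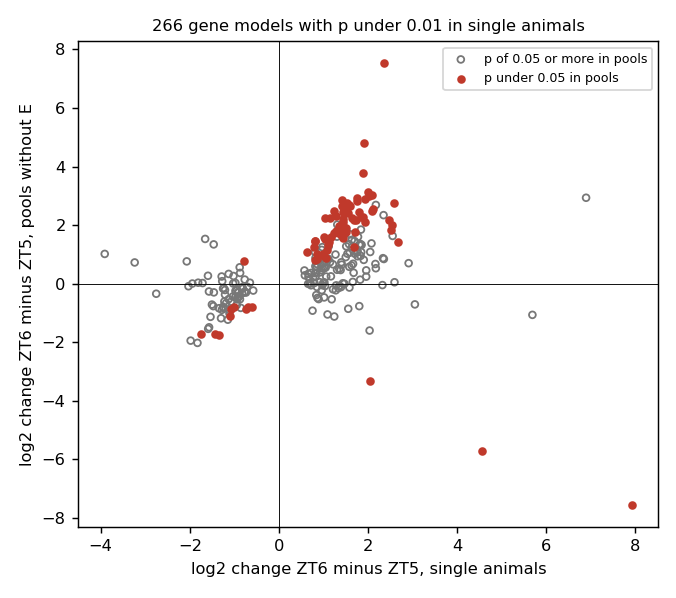
Log2 change ZT6 minus ZT5 in single animals (horizontal) and in pools without E (vertical) for the gene models with an unadjusted p below 0.01 in single animals; red points had an unadjusted p below 0.05 in pools. Of the 189 on the right, 158 lie above 0 in pools, and of the 77 on the left, 57 lie below 0.

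NVE4719 had the smallest p of the rises in single animals, with a log2 change of 2.53 ± 0.41 (SE; edgeR adjusted p = 0.00494), beside 1.99 ± 0.80 in pools without E (edgeR adjusted p = 0.499). NVE448 came next. It had 108, 58.2, 154 and 177.5 CPM in ZT6 animals A to D and 170.5 and 159 CPM in ZT6 pools F and G, against 32.3, 33.3, 13.4 and 10.55 CPM in ZT5 animals A to D and 43.2, 24.1 and 49.1 CPM in ZT5 pools E to G. The hours did not overlap in either kind of library. Its log2 change was 2.48 ± 0.44 in single animals (SE; edgeR adjusted p = 0.0156), and 2.25 ± 0.46 with both kinds (edgeR adjusted p = 0.00288), or 2.35 ± 0.49 without pool E (edgeR adjusted p = 0.00787).

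Of the 3 falls of single animals, 1 was lower in pools, and of the 6 rises, all 6 were higher in pools. NVE2697 changed by a log2 of -3.91 ± 0.69 in single animals (SE; edgeR adjusted p = 0.0156) and by 1.08 ± 0.58 in pools (edgeR adjusted p = 0.695). The difference between these steps, -5.00 ± 1.02, had an edgeR adjusted p of 0.116. NVE8298 had 43.1, 27.3, 33.4 and 23.2 CPM in ZT6 animals A to D and 19.5 and 76.4 CPM in ZT6 pools F and G, against 96.9, 207, 117 and 100.2 CPM in ZT5 animals A to D and 54, 57.5 and 44.6 CPM in ZT5 pools E to G. The single animals of the 2 hours did not overlap and the pools did. Its log2 change was -2.03 ± 0.39 in single animals (SE; edgeR adjusted p = 0.0198) and -0.11 ± 0.59 in pools (edgeR adjusted p = 0.984), with an edgeR adjusted p of 0.987 for their difference. With both kinds it was -1.32 ± 0.34 (SE; edgeR adjusted p = 0.0287), and -1.41 ± 0.35 without pool E (edgeR adjusted p = 0.0228).

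Most of the rises were also higher at ZT7 than at ZT4, the hours on either side. The contrast of ZT7 with ZT4 shares no library with ZT6 against ZT5. Both come from the same fit, with a spread estimated over all 66 libraries, so their calls are not fully independent. At ZT7 against ZT4 edgeR called 53 gene models higher (0.486%) and 99 lower (0.907%). Of the 111 rises, 90 were higher at ZT7 than at ZT4 (81.1%, against 54.1% of all gene models tested), with a median log2 change of 0.88, against 0.05 for all. At an adjusted p below 0.05, 16 of the 111 were higher (14.4%) and 2 were lower in edgeR; DESeq2 called 19 of them higher, of 88 over all gene models, and limma 10, of 144. Of the 87 rises called without pool E, 74 were higher and 14 passed the test (16.1%). ZT4 had only 4 libraries, and ZT4 animal C had only 251647 counts. Of the 4, 2 shared the block of 14 gene models. Without these and the 2 other libraries with that block, which left 2 libraries at ZT4, edgeR called 4 of 11726 gene models higher (0.0341%) and 23 lower (0.196%). Of the 111 rises, 90 were again higher, with a median log2 change of 0.97, and 1 passed the test.

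The falls did not continue in this way. Of the 22 falls called without pool E, 8 were lower at ZT7 than at ZT4 (36.4%, against 45.9% of all gene models tested), the median log2 change was 0.04, and 0 passed edgeR's test in either direction. At an unadjusted p below 0.05 the count was also 0 in edgeR, and DESeq2 and limma called 0 at their adjusted p. Of the 14 gene models of pool E, 12 were called lower at ZT7 than at ZT4. Once the 4 libraries with the block were left out, 4 of the 14 had enough counts to be tested, and edgeR called 0 of them lower.

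NVE2588 and NVE9976 had the smallest p at ZT7 against ZT4 among the rises called in both contrasts. NVE2588 had 31.5, 18.2, 42.3 and 53.25 CPM in ZT6 animals A to D and 19.5 and 26 CPM in ZT6 pools F and G, against 11.3, 12.3, 15.3 and 5.27 CPM in ZT5 animals A to D and 18.0, 1.855 and 4.46 CPM in ZT5 pools E to G. The lowest ZT6 library was just above the highest ZT5 library. The log2 change was 1.70 ± 0.37 at ZT6 against ZT5 (SE; edgeR adjusted p = 0.00586), 1.88 ± 0.40 without pool E (edgeR adjusted p = 0.00787), and 2.59 ± 0.52 at ZT7 against ZT4 (edgeR adjusted p = 0.00289).

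NVE9976 was the most abundant of the 5 rises named. It had 545, 562, 468 and 468 CPM in ZT6 animals A to D and 455 and 731 CPM in ZT6 pools F and G, against 307, 395, 228 and 247 CPM in ZT5 animals A to D and 199.8, 258 and 176 CPM in ZT5 pools E to G. No ZT6 library overlapped a ZT5 library. The log2 change was 1.06 ± 0.22 at ZT6 against ZT5 (SE; edgeR adjusted p = 0.00288), 0.99 ± 0.23 without pool E (edgeR adjusted p = 0.0146), and 1.19 ± 0.26 at ZT7 against ZT4 (edgeR adjusted p = 0.00609).

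NVE448 went the other way in the flanking hours, through 2 of the 4 ZT4 libraries. It averaged 96.8 ± 41.5 CPM at ZT7 (SD, n = 7) and 341 ± 346 CPM at ZT4 (SD, n = 4). ZT4 pools E and F had 632 and 648 CPM, while ZT4 animal C and pool D had 54.5 and 28.9 CPM, below the ZT7 mean. The log2 change at ZT7 against ZT4 was -1.79 ± 0.47 (SE; edgeR adjusted p = 0.0341). It is 1 of the 2 rises called lower there.

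The rises followed a course over the day that went beyond the step. Their hourly level, as the median log2 distance from the mean of the 8 hours other than ZT5 and ZT6, was 0.23 at ZT3, -0.62 at ZT4, -0.74 at ZT5, 0.68 at ZT6, 0.31 at ZT7, 0.06 at ZT8, -0.26 at ZT9, -0.30 at ZT10, -0.01 at ZT11 and 0.58 at ZT12. The median over all gene models tested stayed between -0.04 and 0.03. The values at ZT5 and ZT6 follow from the choice of the list, and those of the other hours do not come from its contrast. At the hours that had no part in the choice, the list was thus low at ZT4, higher at ZT7, lower again at ZT9 and ZT10, and high at ZT12. The 87 rises called without pool E gave 0.27 at ZT3, -0.61 at ZT4, 0.33 at ZT7, -0.24 at ZT9, -0.35 at ZT10 and 0.60 at ZT12.

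Of the 111 rises, 90 were nearer their ZT6 than their ZT5 level at ZT3, 29 at ZT4, 101 at ZT7, 70 at ZT8, 33 at ZT9, 26 at ZT10, 60 at ZT11 and 98 at ZT12. For the 87 called without pool E the counts were 72 at ZT3, 20 at ZT4, 76 at ZT7, 54 at ZT8, 27 at ZT9, 20 at ZT10, 44 at ZT11 and 82 at ZT12. A step, with ZT4 near the ZT5 level and ZT7 near the ZT6 level, was shown by 74. A dip, with both ZT4 and ZT7 nearer the ZT6 level, was shown by 27. Both counts depend on the ZT4 mean, taken over 4 libraries that differed. Of the remaining gene models, 8 were nearer the ZT5 level at both hours and 2 were nearer the ZT6 level at ZT4 and the ZT5 level at ZT7. The lowest hour of the day was ZT5 for 55 of the 111 and ZT4 for 40, and the highest was ZT6 for 62 and ZT12 for 31. Over all gene models tested, the lowest hour was ZT5 for 10.7% and ZT4 for 24.2%, and the highest was ZT6 for 8.65% and ZT12 for 8.21%. That so many of the 111 had an extreme at ZT5 or ZT6 follows from how they were chosen.

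NVE19037 and NVE4719 showed the pattern of the list. The ZT3 average of NVE19037 was 145 ± 83.8 CPM (SD, n = 7), followed by 50.7 ± 34.4 at ZT4 (n = 4), 44.3 ± 26.2 at ZT5 (n = 7), 243 ± 54.4 at ZT6 (n = 6), 157 ± 46.2 at ZT7, 124 ± 57.8 at ZT8, 69.9 ± 22.5 at ZT9, 69.6 ± 34.6 at ZT10, 130 ± 56.5 at ZT11 and 226 ± 67.5 at ZT12 (n = 7 each). Its ZT12 and ZT6 means differed by less than 1 SD, and so did its ZT9 and ZT10 means. NVE4719 averaged 27.7 ± 6.4 CPM at ZT6, 10.3 ± 3.3 CPM at ZT10 and 21.6 ± 7.3 CPM at ZT12. NVE2588 did not show it. Its averages were 9.16 ± 6.5 CPM at ZT3, 5.05 ± 0.97 at ZT4, 9.79 ± 6.0 at ZT5, 31.8 ± 13.7 at ZT6, 30.0 ± 15.9 at ZT7, 19.5 ± 11.8 at ZT8, 26 ± 8.5 at ZT9, 15.1 ± 5.8 at ZT10, 27.1 ± 8.9 at ZT11 and 18.0 ± 4.0 at ZT12, so that ZT9 and ZT11 were above ZT12.

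Of the 22 called without pool E, 16 had their highest hour at ZT5 and 7 their lowest at ZT6, and their median log2 distance from the mean of the 8 other hours was 0.48 at ZT5 and -0.26 at ZT6. These values follow from how the list was chosen. At the other hours the median distance was -0.12 at ZT3, -0.14 at ZT4, -0.01 at ZT7, 0.03 at ZT8, 0.07 at ZT9, 0.26 at ZT10, 0.15 at ZT11 and -0.13 at ZT12. Nearer the ZT6 than the ZT5 level were 20 of the 22 at ZT3, 18 at ZT4, 19 at ZT7, 14 at ZT8, 12 at ZT9, 9 at ZT10, 10 at ZT11 and 18 at ZT12. Most of the 22 were thus on the ZT6 side at ZT3, ZT4, ZT7 and ZT12, and about as many on either side from ZT9 to ZT11.

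**Figure D5:**
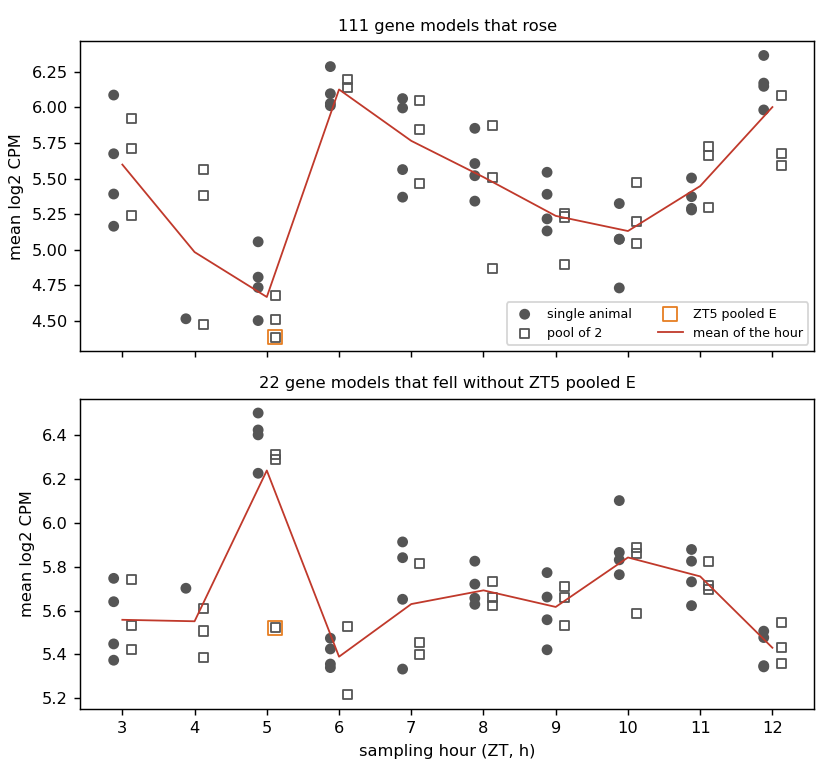
Mean log2 CPM of the 111 rises (top) and of the 22 falls called without ZT5 pool E (bottom) in each of the 66 libraries against the sampling hour; filled points are single animals, open squares pools of 2 animals, the line joins hourly means, and the orange square marks ZT5 pool E. The rises are low at ZT5 and high at ZT6 and ZT12; in the falls the ZT5 libraries lie between 6.23 and 6.50 except pool E, at 5.52. The levels at ZT5 and ZT6 follow from the choice of the lists.

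The main variation between animals did not separate the hours. The leading axis of residual variation, fitted over the series after hour and kind of library were removed, held 29.5% of the residual variance. Its score averaged 0.535 ± 38.9 in ZT6 libraries (SD, n = 6) and -0.917 ± 32.8 in ZT5 libraries (SD, n = 7), with an exact permutation p of 0.934. Without pool E the ZT5 average was 1.40 ± 35.3 (exact permutation p = 0.976). Of all gene models tested, 790 (7.24%) had over 50% of their residual variance on this axis, and 0 of the 111 rises and 0 of the 22 falls not held by pool E were among them. A gene model with a wide spread within an hour is less likely to be called, so these counts cannot decide the role of the axis. Its marker NVE20622 had 704 and 1595 CPM in ZT6 animals B and D and 0 to 4.97 CPM in the other ZT6 libraries, against 714 and 930 CPM in ZT5 animals B and D, 95.9 CPM in ZT5 pool G and 0 to 3.60 CPM in the other ZT5 libraries. Animals B and D were thus high at both hours, and these are also the ZT5 animals that were high in NVE2697. ZT6 animals B and D were not high in NVE2697, with 9.10 and 10.9 CPM.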

How the data were processed

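Whole-animal RNA was sequenced in 66 libraries. The authors deposited raw counts of each gene model in one table. Bowtie2 is named in the submitters' processing notes, without a version, and the labels name the genome of Putnam et al.. The counting tool, its strand setting and the treatment of duplicate reads are not given in the sources used here. Counts of closely related gene models are uncertain. Replicates are separate animals or pools, per the labels.

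Counts were tested with edgeR 4.0.16 in R 4.3.3: TMM factors, the expression filter at a minimum count of 10 with hour as group (10916 gene models with 97.2% of counts), a robust quasi-likelihood fit of hour and kind of library over all 66 libraries (55 residual degrees of freedom), and Benjamini-Hochberg adjustment over all gene models tested, threshold 0.05. The same steps were tested on simulated data. SE is the log2 change over the square root of F. CPM used TMM factors, and log2 CPM a prior count of 2. Library measures had exact permutation tests. DESeq2 1.42.0 and limma 3.58.1 with voom were alternatives, with the others listed below. The members and lists were chosen with earlier results of these data known. At most 2 gene models that rose and 2 that fell were named per comparison, by smallest p, plus 2 markers named earlier.

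Same-letter animals of ZT6 and ZT5 deviated together, with correlations of 0.336 (A), 0.249 (B), 0.397 (C) and 0.508 (D), and for pools F and G the values were -0.123 and 0.0179. Fits have no block unless one is named; the fit of single animals with the letter as a block is given beside its count. The labels do not say what a letter marks. On the leading axis, animals B and D scored 39.6 and 51.3 at ZT5 and 25.6 and 69.1 at ZT6. Animals A and C scored -23.3 and -25.3 at ZT5 and -20.1 and -27.3 at ZT6. How much of the correlations lies on this axis was not tested. Of 78 pairs of libraries none matched within counting noise (lowest chi-square 2.87 per degree of freedom).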

Additional observations from a re-analysis of the deposited data

Results flagged for a closer look

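Within each hour, the gap of the highest or lowest library to its nearest neighbour was set against the range of the hour (Dixon's 95% limit), for each gene model named and for 6 library summaries. Of 34 groups tested, 5 stood out. Chance alone flags about 1 in 20, but that rate is no reference here. The gene models named were chosen in these same libraries, and the block was chosen for its share in ZT5 pool E.

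ZT5 pool E accounted for 3 of the 5. It had 1726 CPM of NVE3853, with at most 4.85 CPM in the other ZT5 libraries, and 698 CPM of NVE25154, with at most 7.67 CPM in the others. It held 5.64% of its counts in the block of 14 gene models, against at most 0.0105% in the others. ZT5 animal D had 505 CPM of NVE2697, with 9.00 to 223 CPM in the others. ZT5 pool G had 8.925 CPM of NVE4719, with 3.51 to 5.75 CPM in the others, still below every ZT6 library.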

How the results depend on the processing

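The count of rises (111) stayed within 1.5 times of itself under all 26 alternatives, between 75 and 140. The 5 rises named kept their direction and their call in all 26. The members of the list changed more. Of the 111, 73 were called again with only the 13 libraries in the fit and 75 without ZT6 G. With the axis score as covariate all 111 were. The count of falls (36) did not. It was 7 with only the 13 libraries in the fit, 16 in limma, 13 with no filter, 19 without the 4 libraries of the block, 56 with the axis score as covariate and 14 with edgeR's legacy fit. Leaving out 1 library gave 13 to 37 falls, with 22 without ZT5 E, 22 without ZT6 A, 19 without ZT6 B, 16 without ZT6 D, 15 without ZT6 F and 13 without ZT6 G. The cause was not tested.

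With the replicate letter as a block, the whole comparison gave 96 rises and 17 falls and the single animals 15 calls in place of 9. In the whole comparison 4 of 6 letter pairs deviated together (correlation over 0.1), so there the block is only an alternative. In single animals DESeq2 called 61 and leaving out 1 animal gave 1 to 8 (5 without ZT5 B, 2 without ZT5 C, 2 without ZT5 D, 5 without ZT6 B, 1 without ZT6 C and 1 without ZT6 D). In pools DESeq2 called 31 and leaving out 1 pool gave 0 to 1, and for the difference of the steps DESeq2 called 12 and leaving out 1 library gave 0 to 1.

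ZT7 against ZT4 (152 calls) gave 459 in limma and 61 to 248 with 1 library left out: 234 without ZT4 D, 74 without ZT4 E, 61 without ZT4 F, 95 without ZT7 B, 99 without ZT7 D, 248 without ZT7 E and 94 without ZT7 G. NVE25154 turned to 0.17 in limma (adjusted p = 0.991). NVE8298, with all libraries -1.32 (edgeR adjusted p = 0.0287), lost its call without ZT5 B (adjusted p = 0.111), without any ZT6 library but G (0.0541 to 0.0945), with no filter (0.0575) and with only the 13 libraries (0.127). NVE3853 and NVE25154 lost their calls in the legacy fit (adjusted p = 0.065 and 0.142), and NVE25154 also without ZT6 G (0.0547).

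The legacy fit, the block in single animals, library sizes from all gene models, ZT7 against ZT4 without the 4 libraries, the hourly course of the rises without pool E and the other ZT5 libraries left out with pool E were chosen after seeing the data. At 507303 to 780576 counts per library of ZT5 and ZT6, 1 count is over 1 CPM, so changes of the rarest gene models were not detectable at this depth. Hours have 4 to 7 libraries of a single day.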
